A study of Homo sapiens with 6 samples.

Results

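Of the 16760 genes in the expression table, 4 are described here: MFSD3, ABHD14B, HAGHL and SMIM1. They were selected on the rise of their transcripts in YTHDC2 knockout cells over WT cells, among genes that belong to no sterol, stress or autophagy group. Their fold changes between the genotypes are therefore a description, and no test of them is given. All 4 were found in the table under these symbols, and all 4 were among the 15441 genes with more than 0 FPKM in at least 3 libraries. FPKM is the number of sequenced fragments scaled to gene length and library depth.

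The study names H1975, an established human lung adenocarcinoma cell line, as the source of the RNA. There were 3 libraries with the genotype YTHDC2 knockout and 3 libraries with the genotype WT. No treatment is given for either group, and the study compared the genotypes to find transcripts downstream of YTHDC2, an RNA helicase that recognises N6-methyladenosine. The labels do not state how many knockout clones were used or whether the 3 libraries of a genotype came from separate cultures, so the spread between them may be technical. A caption of the study that covers RNA-seq and qPCR panels together speaks of biological replicates, without saying how the sequenced libraries were prepared. H1975 was the 1 cell line sequenced.

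The transcript of YTHDC2 itself was at 7.82, 8.92 and 8.14 FPKM in the knockout libraries and at 13.0, 17.1 and 201.3 FPKM in WT replicates 1, 2 and 3. WT replicate 3 thus stood apart for the targeted gene, and the fold changes of the 4 genes are also given without it. Knockout libraries held 32323120 to 34027124 fragments over the listed genes, and WT libraries 27363357 to 30516120. Among markers of lung epithelium, KRT8 and KRT18 averaged 90.1 and 67.0 FPKM, NKX2-1 averaged 1.56 FPKM, and EPCAM and KRT7 averaged 0.532 and 0.130 FPKM. EPCAM and KRT7 were thus low for such markers, and whether the cells match the named line was not tested. EPCAM was lower in the knockout libraries, at 0.265, 0.194 and 0.278 FPKM against 0.912, 0.885 and 0.658 FPKM in WT, and KRT7 was at 0 to 0.0901 FPKM against 0.148 to 0.259 FPKM. KRT8 and KRT18 were higher in every knockout library, at 95.1 to 100.9 and 71.9 to 74.9 FPKM against 77.4 to 88.0 and 59.1 to 63.0 FPKM. The part of these differences in the rises of the 4 genes was not tested. In such bulk RNA, a change in every cell and a change in the share of cells with the transcript cannot be told apart.

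The 4 genes do not form 1 known pathway. MFSD3 encodes a membrane protein of the major facilitator superfamily, whose members carry solutes across membranes. RefSeq now names it SLC33A2, beside SLC33A1, the acetyl-CoA transporter of the endoplasmic reticulum. ABHD14B encodes an alpha/beta hydrolase fold protein that was found as a partner of a TFIID subunit and was later described as a lysine deacetylase that passes the acetyl group to coenzyme A. HAGHL is a relative of HAGH, which encodes glyoxalase II, the enzyme that completes the clearance of methylglyoxal with glutathione. SMIM1 encodes a small membrane protein with a single span that carries the Vel blood group antigen on red cells.

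The genes lie on different chromosomes. In the GENCODE annotation of GRCh38, ABHD14B (ENSG00000114779.19) spans chromosome 3 from 51968510 to 51983409 on the reverse strand. HAGHL (ENSG00000103253.18) spans chromosome 16 from 726936 to 735525 on the forward strand, and SMIM1 (ENSG00000235169.8) spans chromosome 1 from 3772761 to 3775982 on the forward strand.

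The transcripts were GC-rich to different degrees, and this property is followed through the results because fold changes over all genes followed GC content. The transcript nearest in length to the one used for FPKM held 70.2% GC in HAGHL, 68.8% in SMIM1, 68.0% in MFSD3 and 57.9% in ABHD14B. The 250 bases upstream of RefSeq starts are shown for SMIM1 and for both starts of ABHD14B, the genes matched in the RefSeq promoter table, to show how far they differ in GC content. Bases in capitals are matches, on either strand, of the GC box GGGCGG or the ETS-type motif CCGGAAG.
SMIM1, chr1:3772499-3772748, forward strand, GRCh38.p14: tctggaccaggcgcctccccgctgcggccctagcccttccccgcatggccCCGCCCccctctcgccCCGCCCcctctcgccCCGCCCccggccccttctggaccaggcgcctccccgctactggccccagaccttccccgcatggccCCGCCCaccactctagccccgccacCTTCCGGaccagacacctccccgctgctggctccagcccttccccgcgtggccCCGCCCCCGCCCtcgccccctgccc
ABHD14B start 1, chr3:51974631-51974880, reverse strand, GRCh38.p14: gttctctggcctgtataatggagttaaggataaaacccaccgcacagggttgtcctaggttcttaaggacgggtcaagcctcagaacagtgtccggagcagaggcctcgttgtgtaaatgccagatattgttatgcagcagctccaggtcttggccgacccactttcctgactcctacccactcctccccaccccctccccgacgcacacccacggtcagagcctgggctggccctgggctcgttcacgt
ABHD14B start 2, chr3:51974050-51974299, reverse strand, GRCh38.p14: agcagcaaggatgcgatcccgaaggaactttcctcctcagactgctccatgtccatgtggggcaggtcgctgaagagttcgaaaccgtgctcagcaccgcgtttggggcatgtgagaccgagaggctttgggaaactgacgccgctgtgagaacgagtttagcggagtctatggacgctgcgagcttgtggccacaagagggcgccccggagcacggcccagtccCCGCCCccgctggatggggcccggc

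The SMIM1 window held 78.8% GC, 22 CpG dinucleotides, 6 GC boxes and 1 ETS-type match. Its GC content was above that of 95.4% of the 35116 RefSeq windows of this length, whose median was 58.0%. The windows of ABHD14B held 57.6% GC with 10 CpG dinucleotides and no match at start 1, and 63.2% GC with 20 CpG dinucleotides and 1 GC box at start 2. A GC box occurred in 42.6% of all windows and the ETS-type motif in 8.52%. The E-box CACGTG, the CCAAT box, the TATA box TATAAA and the GATA-type motif AGATAA had no match in the 3 windows. They occurred in 6.34%, 32.01%, 10.7% and 9.17% of all windows. The GC box was thus the only searched motif found at both genes, and letters alone do not show binding by any factor. MFSD3, also looked up as SLC33A2, and HAGHL were not matched in the promoter table.

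MFSD3 (ENSG00000167700.8) spans 2140 bases of chromosome 8, from 144509074 to 144511213 on the forward strand. It was at 38.1, 42.5 and 38.7 FPKM in the knockout libraries and at 15.2, 12 and 13.2 FPKM in the WT libraries. The lowest knockout value was 2.52 times the highest WT value, so the genotypes did not overlap. The means were 39.8 ± 2.39 FPKM in the knockout and 13.5 ± 1.59 FPKM in WT (SD, n = 3 libraries each), a ratio of 2.96. On the log2(FPKM + 0.1) scale the difference was 1.56 with a standard error of 0.09, and it was 1.55 without WT replicate 3. These values rested on 924 to 1174 fragments in each WT library and 3196 to 3602 in each knockout library, so counting error was small beside the difference. The length used for the FPKM of MFSD3 was 2541 bases, more than the annotated span of the gene, and the transcript nearest in length had 1548 bases. The comparison between libraries does not depend on this length, but the level of MFSD3 against other genes does.

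ABHD14B was the most abundant of the 4, at 70.0, 75.7 and 69.8 FPKM in the knockout libraries and at 24.8, 22.6 and 25.9 FPKM in the WT libraries. Here too the genotypes were apart, with the lowest knockout value at 2.70 times the highest WT value. The means were 71.8 ± 3.36 and 24.4 ± 1.65 FPKM, a ratio of 2.94. The log2 difference was 1.55 with a standard error of 0.06, the smallest standard error of the 4 genes, and 1.60 without WT replicate 3.

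MFSD3 and ABHD14B moved by nearly the same factor. MFSD3 stood at 0.545, 0.562 and 0.554 of the FPKM of ABHD14B in the knockout libraries and at 0.612, 0.530 and 0.511 of it in the WT libraries. The mean ratio was 0.554 ± 0.00835 in the knockout and 0.551 ± 0.0533 in WT, and the range of the knockout ratios fell inside that of the WT ratios. Since both genes were selected for a large rise, this near equality is a description.

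HAGHL was less abundant, at 11.0, 10.6 and 10.8 FPKM in the knockout libraries and at 3.95, 3.19 and 4.68 FPKM in the WT libraries. The lowest knockout library had 2.28 times the level of the highest WT library. The means were 10.8 ± 0.161 and 3.94 ± 0.744 FPKM, a ratio of 2.74, with a log2 difference of 1.45 and a standard error of 0.12. Without WT replicate 3, in which HAGHL was highest among the WT libraries, the difference was 1.58. The knockout libraries were close to each other. The 95% Poisson intervals for the counting error of their 682, 645 and 640 fragments overlapped, so this closeness is not read as a trait of HAGHL. Of 4332 genes within 2-fold of the mean level of HAGHL, 4.99% had a lower SD of log2 values among the knockout libraries and 94.9% had a lower SD among the WT libraries.

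SMIM1 was the least abundant and the most variable. It was at 3.29, 3.50 and 4.32 FPKM in the knockout libraries and at 2.53, 0.902 and 1.01 FPKM in the WT libraries. WT replicate 1 was well above the other WT libraries, and the lowest knockout value was only 1.303 times its value. With a gene length of 506 bases, these levels rested on 57, 59 and 71 fragments in the knockout and on 39, 14 and 14 in WT. The 39 fragments of WT replicate 1 had a 95% Poisson interval of 27.7 to 53.3, which did not meet the interval of 7.65 to 23.5 for 14 fragments. Such intervals cover counting error only. The spread among the WT libraries was larger than in 99.5% of 3212 genes of like level.

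The mean level of SMIM1 was 3.70 ± 0.542 FPKM in the knockout and 1.48 ± 0.910 FPKM in WT, a ratio of 2.50. The log2 difference was 1.40 with a standard error of 0.32, and 1.22 without WT replicate 3. It was 1.84 without WT replicate 1, so this 1 library set the size of the difference more than any other. With a pseudocount of 1 FPKM in place of 0.1 FPKM it was 0.98, below the log2 difference of 1 used for calls.

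**Figure D1:**
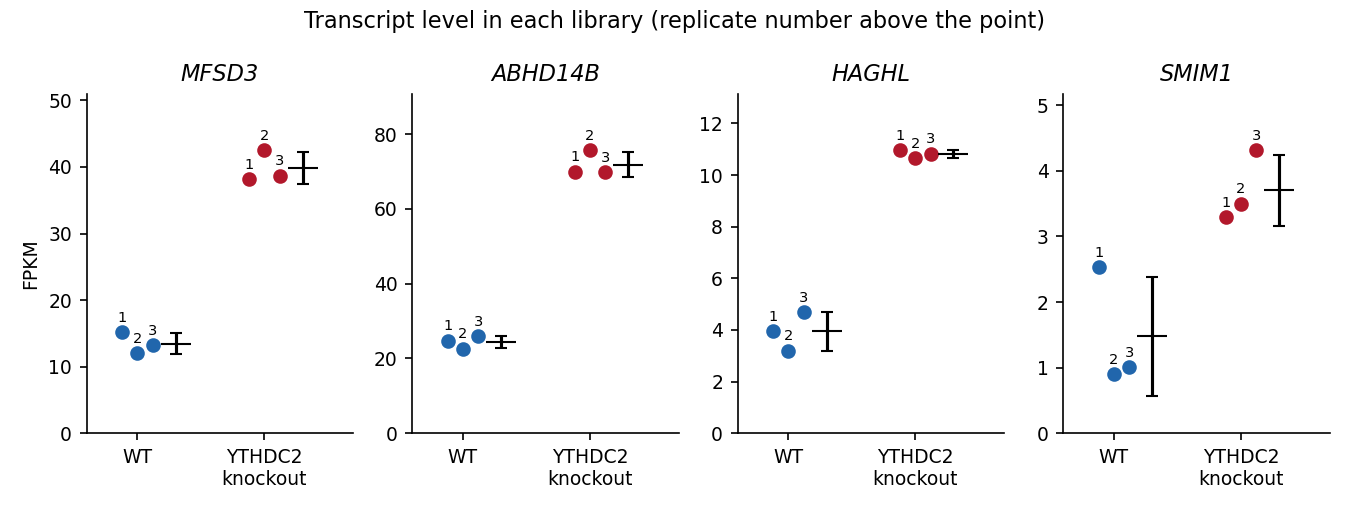
FPKM of MFSD3, ABHD14B, HAGHL and SMIM1 in each of the 3 WT (blue) and 3 YTHDC2 knockout (red) libraries, with the replicate number above each point and the mean ± SD in black; each panel has its own axis from 0. The knockout points lie above all WT points in each panel, and WT replicate 1 of SMIM1, at 2.53 FPKM, comes closest to them.

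The order of the levels was the same in all 6 libraries, with ABHD14B above MFSD3, HAGHL and SMIM1 in turn. Over all libraries the 4 genes ranked 1458, 2587, 6369 and 9396 by mean FPKM among the 16760 genes. The levels of neighbours in this order did not overlap within either genotype, though the place of MFSD3 rests on the length discussed above.

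Over the whole table, genes were called with limma where the Benjamini-Hochberg adjusted p was under 0.05 and the log2 fold change exceeded 1 in either direction. With them it called 113 genes higher in the knockout, 0.732% of the 15441 tested, and 307 genes lower, or 1.99%. After scaling to a common median the counts were 165 higher and 245 lower, and after quantile normalization 195 higher and 206 lower. Every knockout library was above every WT library for 3195 genes, 20.7% of those tested. The 4 genes were among the 113 and the 3195, as their selection requires. The median log2 fold change over all tested genes was -0.09.

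There were 79 genes called higher that averaged at least 1 FPKM and did not overlap between genotypes. Ordered by log2 fold change, MFSD3 ranked 4, ABHD14B ranked 5, HAGHL ranked 9 and SMIM1 ranked 10. Between ABHD14B and HAGHL lay INSIG1, a sterol sensor partner in the endoplasmic reticulum, at 1.52, DDIT4, a stress-induced inhibitor of mTORC1, at 1.48, and H2AW, a histone H2A gene, at 1.48. H2AW is in none of the sterol, stress and autophagy groups by its known role, so the 4 genes are not every gene of this range outside them. SMIM1 at 1.40 was just inside the selection. ECEL1, a membrane metalloprotease, was next at 1.39 and outside it, with 4.92, 5.83 and 5.51 FPKM in the knockout against 2.24, 1.73 and 2.08 FPKM in WT. The border thus ran between values that differ by far less than the standard error of SMIM1.

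GC-rich transcripts were higher in the knockout as a class. The median log2 fold change went from -0.35 in the lowest of 10 equal bins of tested genes by GC content to 0.26 in the highest, which held transcripts of 62.5% to 76.8% GC. That highest bin contained MFSD3, HAGHL and SMIM1, and 57 of its 1533 genes were called higher, or 3.72%. ABHD14B lay in bin 8, where the median was 0.08. The fold changes of the 4 genes were far above these medians. What produced the relation to GC content was not tested.

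**Figure D2:**
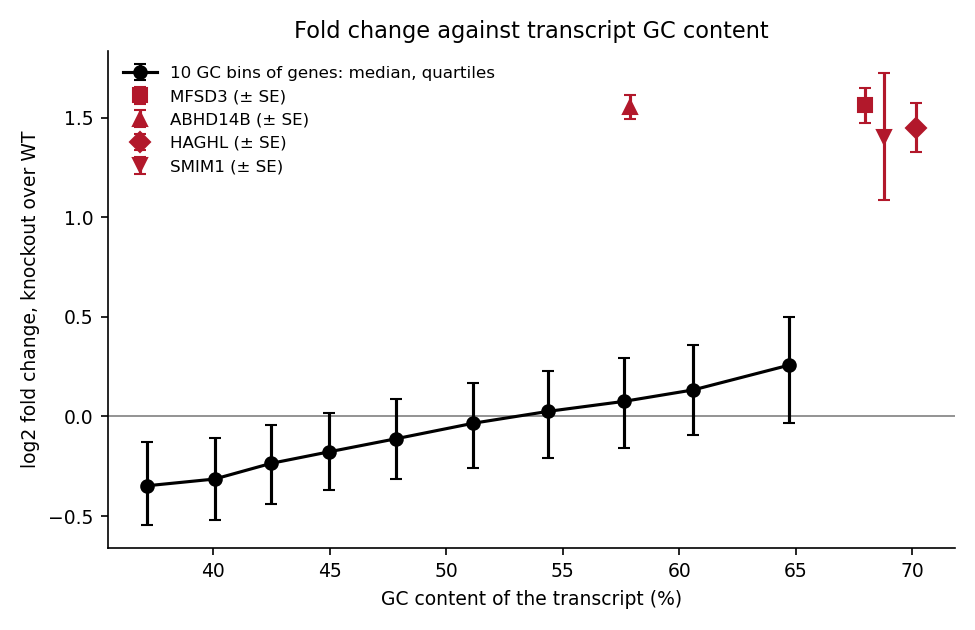
Log2 fold change (knockout over WT) against the GC content of the transcript in percent; black points are medians of 10 equal bins of all tested genes with bars for the quartiles, red symbols the 4 genes with standard errors. The medians climb from -0.35 to 0.26, and the 4 genes lie between 1.40 and 1.56, with ABHD14B apart at 57.9% GC.

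Each gene was next set beside the other genes within 2 percentage points of its GC content that averaged at least 1 FPKM. For MFSD3 these were 269 genes with a median log2 fold change of 0.38, of which 5.95% were called higher and 1 was at or above MFSD3. The excess of MFSD3 over that median was 1.19. For ABHD14B, 1385 genes had a median of 0.13, with 0.939% called higher and none at or above it, and the excess was 1.42. For HAGHL, 99 genes had a median of 0.36, with 5.05% called higher and none at or above it, and the excess was 1.09. For SMIM1, 191 genes had a median of 0.37, with 6.28% called higher and 1 at or above it, and the excess was 1.04.

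As a ratio, genes of like GC content were 1.29-fold higher in the knockout for SMIM1 and 1.09-fold higher for ABHD14B. Relative to these genes MFSD3 was 2.27-fold, ABHD14B 2.68-fold, HAGHL 2.13-fold and SMIM1 2.05-fold higher in the knockout. The choice of transcript mattered most for ABHD14B, whose 8 annotated transcripts held 57.9% to 66.9% GC. At the highest of these values its 401 comparison genes had a median of 0.37 and its excess was 1.19, close to that of MFSD3.

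The same excess can be read in each library, with log2 values centred on the WT mean. MFSD3 exceeded genes of like GC content by 1.11, 1.28 and 1.14 in the knockout libraries and differed from them by 0.08, -0.09 and -0.00 in the WT libraries. ABHD14B exceeded them by 1.38, 1.51 and 1.38 in the knockout, and HAGHL by 1.08, 1.08 and 1.11. For SMIM1 the values were 0.86, 0.97 and 1.26 in the knockout and 0.78, -0.44 and -0.35 in WT. WT replicate 1 therefore came within 0.1 of the lowest knockout library for SMIM1, while the genotypes stayed far apart for the other genes.

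**Figure D3:**
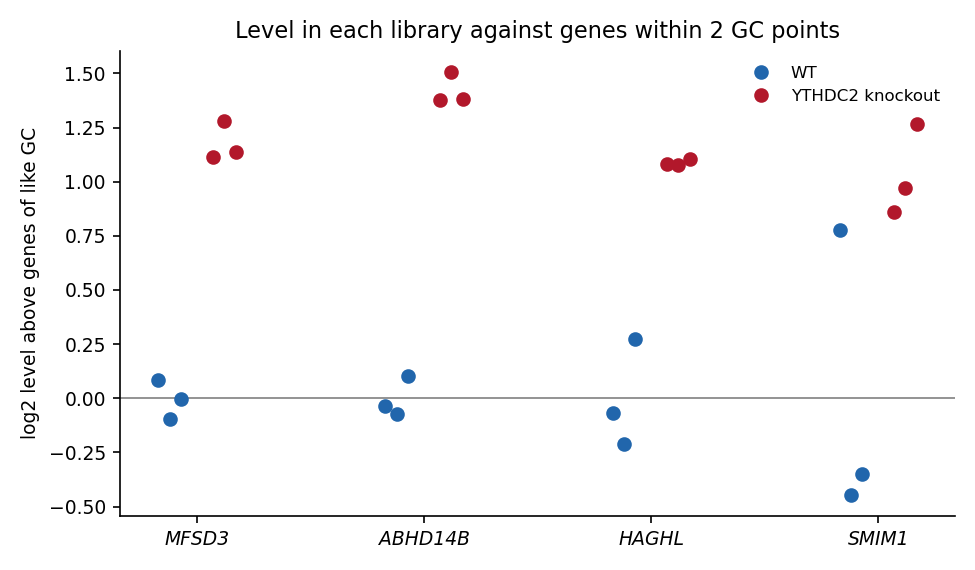
Log2(FPKM + 0.1) of each gene, centred on its WT mean, minus the median of the genes within 2 GC percentage points in the same library; blue points are WT and red points YTHDC2 knockout libraries. Knockout points lie between 0.86 and 1.51 and WT points between -0.44 and 0.27, except SMIM1 in WT replicate 1 at 0.78.

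A correction that removed a smooth curve of log2 values on GC content from every library gave a similar picture. The log2 fold change was then 1.46 for ABHD14B, 1.23 for MFSD3, 1.07 for HAGHL and 1.05 for SMIM1, with standard errors of 0.06, 0.06, 0.11 and 0.29. Among the 44 genes that then met the conditions for ranking, ABHD14B ranked 5, MFSD3 ranked 10, HAGHL ranked 32 and SMIM1 ranked 36. The corrected fit tested 15326 genes, since genes without a GC value were left out. LOC102724770, at rank 3 before the correction, and H2AW, at rank 8, had no GC value. The ranks before and after thus cover unlike sets of genes. The standing of HAGHL and SMIM1 near the top of the list thus depended on leaving GC content uncorrected. The corrected rank of ABHD14B rested on a GC content of 57.9%, the lowest among its transcripts. The correction was not run with the highest, 66.9%.

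Genes beside the 4 on the chromosome were examined to see how far the rises extended. Of the 24 genes of the table nearest to them, 3 on each side, 23 were tested, 2 were called higher and 0 lower. Over all 15441 tested genes, 113 were called higher and 307 lower. At an adjusted p under 0.05 without the fold change threshold, 7 were higher and 3 lower, against 2563 and 4044 of all 15441 tested genes. At an unadjusted limma p under 0.05 the counts were 8 and 5, and limma voom on recovered fragments called 2 higher and 1 lower. The unadjusted count over all tested genes is not given, so the 8 and 5 cannot be set against a background. The 4 loci differed in this respect.

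At HAGHL, the 2 called genes were METRN and ANTKMT, which lie 7280 and 4334 bases upstream on the same strand. METRN encodes meteorin, a secreted neurotrophic protein, and was at 12.2, 11.7 and 12.4 FPKM in the knockout against 6.28, 4.80 and 5.49 FPKM in WT. ANTKMT, which encodes a lysine methyltransferase of the adenine nucleotide translocase, was at 27.3, 28.5 and 28.4 FPKM against 13.3, 14.3 and 12.7 FPKM. Neither gene overlapped between genotypes. Their log2 fold changes were 1.13 (limma adjusted p = 8.18e-05) and 1.06 (adjusted p = 1.67e-05). Both transcripts were GC-rich, at 66.6% and 72.9%, and after the GC correction their log2 fold changes were 0.83 and 0.61, under the threshold of 1.

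The genes that overlap HAGHL on the opposite strand did not follow it. CIAO3, a component of cytosolic iron-sulfur protein assembly, shares 1744 exon bases with HAGHL and had 16.0 FPKM on average, with a log2 fold change of -0.00 (adjusted p = 0.973). CCDC78, which shares 19 exon bases, was at 0.30 (adjusted p = 0.135). Beyond CIAO3 lay MSLN, which encodes mesothelin and averaged 0.0812 FPKM, at -1.02 (adjusted p = 0.0612), with calls at -1.25 without WT replicate 1 and -1.30 without WT replicate 3, and RPUSD1 at 0.34 (adjusted p = 0.0124). As the strand setting of the counting is not given, fragments from the shared bases of HAGHL and CIAO3 cannot be told apart.

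At ABHD14B, ABHD14A overlaps on the opposite strand with 392 shared exon bases and is named for the same hydrolase family. It was at 8.75, 10.3 and 11.3 FPKM in the knockout and at 7.82, 7.06 and 6.92 FPKM in WT, a log2 fold change of 0.47 (adjusted p = 0.00575), below the fold change threshold. ACY1, encoding aminoacylase 1, shares 132 exon bases and was at 0.83 (adjusted p = 0.0669) from a mean of only 0.600 FPKM. Without knockout replicate 2 it was called, at 1.21. PCBP4, an RNA-binding protein gene on the same strand with 52 shared exon bases, was at 0.02 (adjusted p = 0.879). Fragments of the bases shared with ABHD14A and ACY1 cannot be told apart, which leaves their values uncertain. Of the genes without shared bases, PARP3, encoding a poly(ADP-ribose) polymerase, was at -0.51 (adjusted p = 0.00736), the ribosomal protein gene RPL29 at 0.22 (adjusted p = 0.00309) and GPR62 at 0.07 (adjusted p = 0.874). The values at this locus thus went in both directions, and none of the 6 genes was called.

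MFSD3 ends 74 bases from RECQL4, a DNA helicase gene on the opposite strand. RECQL4 was at 30.6, 31.8 and 31.3 FPKM in the knockout and at 25.5, 22.4 and 25.3 FPKM in WT, a log2 fold change of 0.36 (adjusted p = 0.00192), which became 0.08 after the GC correction. The other 5 neighbours, FOXH1, PPP1R16A, GPT, LRRC14 and LRRC24, had log2 fold changes of 0.38, 0.23, 0.20, -0.03 and 0.04. None of the 6 was called. MFSD3 thus lay well above its neighbours, which were also GC-rich at 62.5% to 71.2%.

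At SMIM1, the neighbours reported here lay near or below 0. LRRC47 was at -0.30 (adjusted p = 0.00604), TP73, a transcription factor gene, at -0.26 (adjusted p = 0.0619), and WRAP73 and DFFB both at 0.02. CCDC27, which lies 1115 bases upstream, had too few values to be tested. The medians at the other loci were 0.32 at HAGHL, 0.22 at MFSD3 and 0.15 at ABHD14B.

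**Figure D4:**
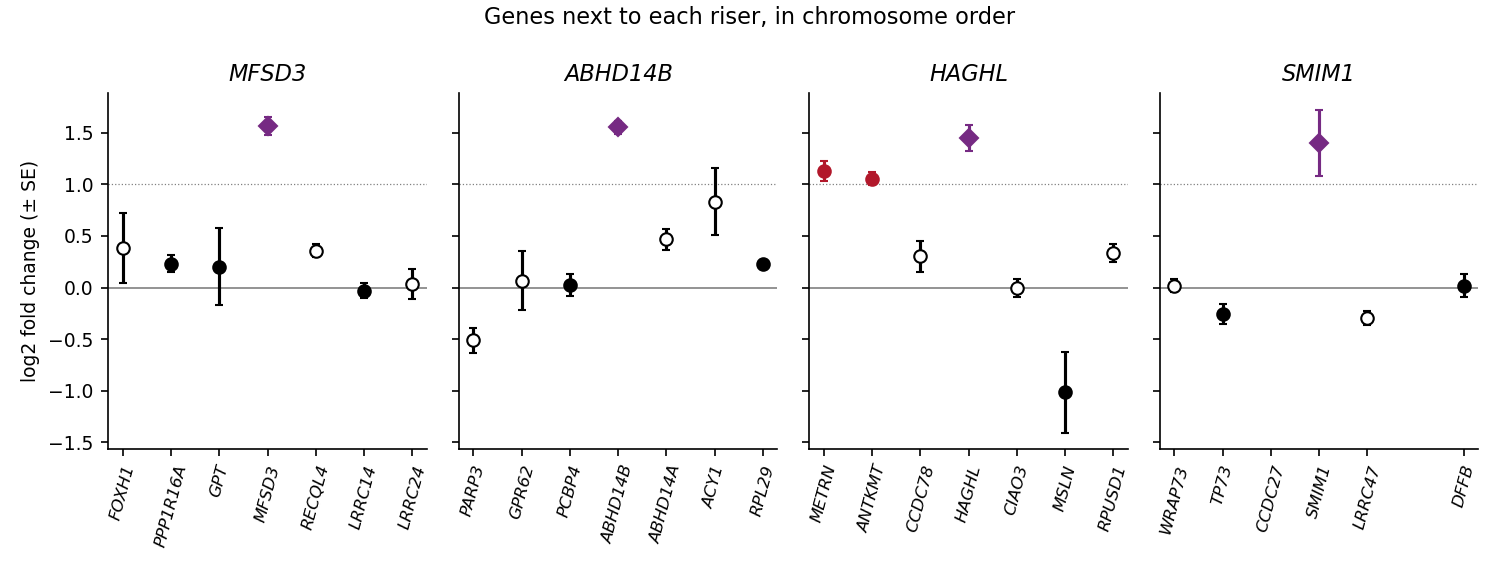
Log2 fold change (knockout over WT) with standard error for each of the 4 genes (purple diamonds) and up to 3 of the nearest table genes on each side, in chromosome order; filled circles are on the same strand, open circles on the opposite strand, red marks called genes and the dotted line a value of 1. METRN and ANTKMT beside HAGHL, at 1.13 and 1.06, are the called neighbours.

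Lists of relatives and of genes that act in the same processes were then read, without the 4 genes themselves. The list medians lay between -0.11 and 0.19, beside -0.09 for all tested genes. At an adjusted p under 0.05 alone, 2563 of all 15441 tested genes were higher and 4044 lower. These are the background for the counts of each list at that threshold. For called genes the background is 113 higher and 307 lower of the 15441. Where limma called no gene of a list, limma voom on recovered fragments called none either. The counts at an unadjusted p under 0.05 are given for those lists too. They have no count over all tested genes beside them and cannot be read as more or fewer than usual. Of 20 tested genes of the ABHD family, none was called, with 3 higher and 6 lower at an adjusted p under 0.05 alone and a median log2 fold change of 0.02. The unadjusted counts were the same, 3 and 6. ABHD17A, a depalmitoylase gene, was the highest at 0.61 (adjusted p = 0.000198), and ABHD10, the most abundant, was at -0.55 (adjusted p = 0.000391). After the GC correction these were 0.34 and -0.21. ABHD12, a lysophospholipid hydrolase gene, was at 0.14 (adjusted p = 0.112).

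Of 17 further tested genes of the MFSD family list, which included SLC33A1, none was called, with 1 higher and 8 lower at an adjusted p under 0.05 alone and a median of -0.11. Unadjusted, 2 were higher and 8 lower. The single higher gene was MFSD10, at 33.8 ± 1.39 FPKM against 25.3 ± 1.27 FPKM (log2 fold change 0.42, adjusted p = 0.000623). After the GC correction MFSD10 was at 0.13. SLC33A1, the namesake of the transporter family to which MFSD3 is now assigned, was at 4.40, 5.02 and 4.34 FPKM in the knockout and at 4.41, 4.10 and 5.003 FPKM in WT, with a log2 fold change of 0.03 (adjusted p = 0.858). The standard error was 0.10, so a rise of the size seen for MFSD3 was not present in SLC33A1. After the GC correction SLC33A1 was at 0.34, beside 1.23 for MFSD3.

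Acetyl-CoA supply joins the list around SLC33A1 to the activity described for ABHD14B. None of its 18 tested genes was called, with 5 higher and 1 lower at an adjusted p under 0.05 alone and a median of -0.02. Unadjusted, 5 were higher and 3 lower. Among the 5 past the adjusted threshold were ACLY, encoding the ATP citrate lyase that makes cytosolic acetyl-CoA, at 301 ± 7.41 FPKM against 187 ± 4.14 FPKM (0.68, adjusted p = 1.78e-05), and SLC25A1, the mitochondrial citrate carrier, at 206 ± 3.41 against 117 ± 6.90 FPKM (0.82, adjusted p = 1.90e-05). CRAT, carnitine acetyltransferase, was at 0.86 (adjusted p = 9.95e-05). After the GC correction these were 0.70, 0.54 and 0.66. The mitochondrial pyruvate dehydrogenase subunit gene DLD was the lower one, at -0.35 (adjusted p = 0.00896).

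Of 18 tested lysine deacetylase genes (HDAC and SIRT families), none was called, with 6 higher and 4 lower at an adjusted p under 0.05 alone. HDAC1, the most abundant, was at -0.22 (adjusted p = 0.00475), HDAC3 at 0.39 (adjusted p = 0.000251) and HDAC2 at -0.41 (adjusted p = 0.00258). After the GC correction these were -0.10, 0.39 and -0.08. The directions were mixed, with a median of 0.02, and the unadjusted counts were 7 higher and 4 lower.

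HAGHL was set beside 14 genes of methylglyoxal clearance. GLO1, encoding glyoxalase I, the first enzyme of the pathway, was at 269, 268 and 269 FPKM in the knockout and at 320, 338 and 333 FPKM in WT, a log2 fold change of -0.30 (adjusted p = 0.000474) that became 0.02 after the GC correction. HAGH was at 19.5, 20.6 and 18.4 FPKM against 16.7, 15.7 and 15.7 FPKM, a log2 fold change of 0.28 (adjusted p = 0.00604). After the GC correction it was 0.15. HAGH, with all knockout libraries above WT, thus changed by far less than its relative HAGHL. PARK7, whose product DJ-1 has been linked to glycation repair, was at -0.06 (adjusted p = 0.438).

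Called in this list were AKR1B10 and AKR1C2, aldo-keto reductase genes, which fell by 1.32 and 1.02 on the log2 scale (adjusted p = 0.0128 and 0.0112). Both were near the detection limit, at 0.0559 ± 0.0503 and 0.0372 ± 0.0369 FPKM in the knockout against 0.298 ± 0.170 and 0.174 ± 0.0524 FPKM in WT. Without knockout replicate 3 neither call held, at -1.10 (adjusted p = 0.0533) and -0.81 (adjusted p = 0.0436). Without WT replicate 1 they were at -0.996 and -0.89, and AKR1C2 was at -0.99 without WT replicate 2. The GC correction gave -1.20 for AKR1B10 and -0.72 for AKR1C2 (adjusted p = 0.0638), which ended the call of AKR1C2. The AKR1C genes are close paralogs, so their fragments may be split between them. At an adjusted p under 0.05 alone, 7 genes of the list were higher and 3 lower. Among the higher were AKR1A1 at 0.63 (adjusted p = 7.82e-05) and LDHD, which oxidises the D-lactate that glyoxalase II releases, at 0.90 (adjusted p = 0.00286). LDHD was called without WT replicate 3, at 1.07. Its transcript held 69.2% GC, and after the GC correction its log2 fold change was 0.54. The median of the list was 0.09.

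HAGHL also belongs to the metallo-beta-lactamase fold. None of the other 16 tested genes of this fold was called, with 5 higher and 6 lower at an adjusted p under 0.05 alone and a median of -0.08. Without adjustment the counts were 5 and 6 as well. The most abundant were ELAC2, a tRNA 3' processing enzyme gene, at 0.19 (adjusted p = 0.0177), CPSF3, the pre-mRNA cleavage nuclease gene, at -0.14 (adjusted p = 0.0406), and INTS11, the Integrator nuclease gene, at 0.60 (adjusted p = 0.000771).

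For SMIM1, 27 other genes named as small integral membrane proteins were tested and none was called, with 5 higher and 5 lower at an adjusted p under 0.05 alone and a median of -0.07. Unadjusted, 5 were higher and 6 lower. SMIM26, SMIM30 and SMIM7, the most abundant, were at -0.07, -0.18 and -0.13 (adjusted p = 0.367, 0.166 and 0.180). This list shares a naming scheme and a size class rather than a function.

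Erythroid genes were low in these libraries. Of 17 listed erythroid genes, 14 averaged under 1 FPKM, and GATA1, the master regulator of the lineage, had 3 fragments over the knockout libraries and 0 over the WT libraries. ALAS2, the erythroid heme synthesis enzyme gene, had 1 and 0. The summed level of the list was 11.7 to 13.0 FPKM in the knockout libraries and 8.31 to 11.4 FPKM in the WT libraries. None of the 10 tested genes was called, though without knockout replicate 3 KLF1, an erythroid transcription factor gene at 0.123 ± 0.0734 FPKM in the knockout, was called at 1.01. At an unadjusted p under 0.05, 2 were higher and 1 lower. At an adjusted p under 0.05 alone, EPOR, the erythropoietin receptor, was at 0.53 (adjusted p = 0.00674), SPTB, a spectrin gene, at 0.61 (adjusted p = 0.00528) and ANK1, an ankyrin gene, at -0.83 (adjusted p = 0.000460). Globin genes differed, from HBE1 with 54 fragments over the knockout and 38 over the WT libraries to HBA2 with 0 and 1. SMIM1 was therefore higher in libraries in which GATA1 and ALAS2 stayed at or near 0, which does not hold for every listed erythroid gene.

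Among 34 other tested genes for blood group antigens and their synthesis, 2 were called higher and 2 lower, with a median of 0.06. Over all tested genes 0.732% were called higher and 1.99% lower. At an adjusted p under 0.05 alone, 7 genes of the list were higher and 6 lower. BCAM, the Lutheran antigen and a laminin receptor, was at 13.8, 13.5 and 14.4 FPKM in the knockout against 7.59, 5.41 and 6.74 FPKM in WT (log2 fold change 1.08, adjusted p = 0.000167). ICAM4, the Landsteiner-Wiener antigen, was at 2.97, 2.68 and 2.43 FPKM against 1.40, 1.09 and 1.35 FPKM (1.02, adjusted p = 0.000515). Both rises were close to the fold change threshold. Without WT replicate 2 they were 0.95 and 0.92, ICAM4 was at 0.95 without knockout replicate 1, and the GC correction gave 0.79 and 0.88.

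CD44, the hyaluronan receptor that carries the Indian antigens, fell by 1.31 on the log2 scale (adjusted p = 0.00106), at 0.0538, 0.0935 and 0.1003 FPKM in the knockout against 0.321, 0.430 and 0.309 FPKM in WT. C4A, a complement gene with the near-identical copy C4B, fell by 1.02 (adjusted p = 0.00908) and was uncertain for that reason. Its log2 fold change was -0.96 without knockout replicate 3, -0.91 without WT replicate 2 and -0.88 without WT replicate 3. Both genes were far below the level of SMIM1. The most abundant genes of the list, BSG, CD151 and EMP3, were at 0.17 (adjusted p = 0.0521), 0.62 (adjusted p = 5.92e-05) and 0.14 (adjusted p = 0.147).

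The genes whose pattern over the 6 libraries was most like that of each gene were found by the root mean square difference of log2 values centred on the WT mean, among 11120 genes that averaged at least 1 FPKM. ABHD14B was the nearest gene to MFSD3 and MFSD3 the nearest to ABHD14B, at a difference of 0.0795. MFSD3 was next followed by ECEL1 at 0.134 and DDIT4 at 0.146, and ABHD14B by DDIT4 at 0.104 and INSIG1 at 0.111. These near neighbours had GC contents from 42.9% in INSIG1 to 68.0% in MFSD3, so genes near in pattern differed in GC content.

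HAGHL was nearest to PPM1J, a protein phosphatase gene, at 0.0843, TENT5C, a poly(A) polymerase gene, at 0.108, and DDIT4 at 0.118. SMIM1 had no near match. ARC, TLE2 and TMEM52 were closest, at 0.248, 0.265 and 0.317, and in each of them WT replicate 1 was also the highest of the WT libraries. TMEM52, for example, was at 4.14, 1.95 and 2.99 FPKM in WT and at 5.88, 5.97 and 7.17 FPKM in the knockout. As each measure rests on 6 libraries and includes the genotype difference on which the 4 genes were selected, these matches describe the libraries only.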

How the data were processed

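RNA was sequenced from 3 YTHDC2 knockout and 3 WT libraries, which the study names as H1975 cells, grouped by the genotype in the labels. The authors deposited FPKM values of 16760 genes, made with GRCh38.p13 per the labels. The sources used here do not name the aligner, the counter, the annotation or the strand setting. The 4 genes, the 9 gene lists and the thresholds were chosen with earlier results of these data known.

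Whole fragments were recovered for 16760 genes from the steps of the FPKM values (tolerance 0.02). Tested on simulated data for 16493 genes, this step returned exact fragments for 97.8%. The main test used limma 3.58.1 under R 4.3.3 on log2(FPKM + 0.1) for 15441 genes above 0 FPKM in at least 3 libraries, with a mean-variance trend, robust moderation and Benjamini-Hochberg adjustment. Fold changes on this scale understate those of genes near 0.1 FPKM. GC content and positions came from GENCODE (GRCh38), in which 99.1% of genes matched, and promoters from RefSeq. The GC correction subtracted a lowess curve (span 0.3) from each library. Genes named are the 4 genes, those next to them in order of rise, the 3 nearest genes on each side, 3 genes nearest in pattern, HAGH, ABHD14A, and for each list the called or most abundant genes. Other list genes were named after their values were seen. The values of 1 neighbouring gene, counted among the 24, are not reported here. Libraries with the same number did not deviate together (Pearson r 0.08, 0.02 and -0.02 across genes), so they were not paired. Python 3.11.15, pandas 2.3.3, scipy 1.17.1 and numpy 2.4.6 were used.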

Additional observations from a re-analysis of the deposited data

How the results depend on the processing

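The log2 fold changes of the 4 genes kept their direction in all 18 alternatives, and only SMIM1 with a pseudocount of 1 FPKM, at 0.98, fell below 1. Their ranges were 1.23 to 1.65 for MFSD3, 1.46 to 1.65 for ABHD14B, 1.07 to 1.58 for HAGHL and 0.98 to 1.84 for SMIM1, and the excess over genes of like GC content ran from 0.66 for SMIM1 with a pseudocount of 1 FPKM to 1.47 for ABHD14B without WT replicate 3. The counts of called genes moved more: 113 higher and 307 lower became 184 and 505 with a pseudocount of 0.01 FPKM, 29 and 69 with 1 FPKM, 167 and 483 with limma voom on the recovered fragments, 195 higher with quantile normalization, 75 higher with a replicate block and GC correction, and 126 lower among genes averaging at least 1 FPKM. The replicate block alone gave 112 higher and 309 lower, and without each library in turn 91 to 157 were higher and 301 to 396 lower. The 2 higher and 4 lower genes of the lists became 0 and 0 with a pseudocount of 1 FPKM, 0 higher with GC correction, with or without the block, 1 higher after rescaling to a common total, 0 lower at 1 FPKM or more, and 2 lower after median scaling or quantile normalization; leaving out single libraries gave 0 to 3 higher and 1 to 5 lower. The 2 higher neighbours became 1 after rescaling to a common total and 0 with GC correction, with or without the replicate block, and 2 to 3 when libraries were left out. The low-level gene MSLN was called lower, making the count of lower neighbours 1 in place of 0, with a pseudocount of 0.01 FPKM, GC correction, the replicate block alone or with GC correction, voom, and without WT replicate 1 or 3 (0 to 1 over single libraries). The cause of these changes was not tested, except that the smaller sets tested held fewer genes. Depth limited SMIM1 most, with 14 fragments in WT replicates 2 and 3.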
